A study of Mus musculus with 9 samples.

Results

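The creatine kinase system and the supply of creatine were examined in the cardiac ventricles of mouse fetuses with both copies, a single copy or neither copy of Esrrg, which encodes the nuclear receptor ERRγ. The set holds 7 genes, chosen by their symbol in the platform annotation: the mitochondrial creatine kinases Ckmt2 and Ckmt1, the cytosolic kinases Ckm and Ckb, the enzymes of creatine synthesis Gatm and Gamt, and the creatine transporter Slc6a8. They are measured by 10 of the 45101 probe sets of the array, and every one of the 10 is described. The 7 genes are among 18193 that the array measures with probe sets of a single symbol.

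Each genotype, called WT (ERRγ +/+), HET (+/-) and KO (-/-) here, was represented by 3 arrays labelled as biological replicates, from ventricles of male fetuses at E18.5. No treatment distinguishes the groups, and the sources used here name neither the strain nor the kind of Esrrg allele. Whether the ventricles of 3 fetuses were pooled on each array is unclear from the labels, and p-values therefore cover the spread among the arrays alone. The values are MAS5 signals, a linear brightness for each probe set, scaled so that every array has the same trimmed mean.

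Creatine kinases pass a phosphate group between ATP and creatine. The mitochondrial enzymes sit between the mitochondrial membranes, where they load creatine with phosphate from newly exported ATP. Ckmt2 is the form of striated muscle and Ckmt1 the form of other tissues. The cytosolic enzymes regenerate ATP from phosphocreatine near myofibrils and ion pumps: Ckm is the muscle subunit, and Ckb the brain subunit, which is also a known form of the fetal heart. Gatm joins arginine and glycine into guanidinoacetate, Gamt methylates it to creatine, and Slc6a8 carries creatine into muscle cells, which are known to take up most of their creatine rather than make it. ERRγ is known to bind AAGGTCA-type sites at genes of energy metabolism.

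The sequences just upstream of the kinase genes show what an ERR-type motif search finds there. RefSeq windows of the GRCm38.p6 build, reaching 250 bases upstream of an annotated start, were found for 6 of the 7 members, 7 windows in all, 2 of them for Ckmt1. The 3 shown are those of the kinase called between KO and WT, its mitochondrial relative and the cytosolic muscle kinase, printed 5′ to 3′ on the strand of the gene and only as far as the annotated gene begins. Capitals mark a match to AAGGTC or to the reverse complement of AAGGTCA, and the Ckm window has none. They lie at chr13:91876924-91877135 (minus strand) for Ckmt2, chr2:121357526-121357772 (plus strand) for Ckmt1 and chr7:19410844-19411093 (plus strand) for Ckm.
Ckmt2: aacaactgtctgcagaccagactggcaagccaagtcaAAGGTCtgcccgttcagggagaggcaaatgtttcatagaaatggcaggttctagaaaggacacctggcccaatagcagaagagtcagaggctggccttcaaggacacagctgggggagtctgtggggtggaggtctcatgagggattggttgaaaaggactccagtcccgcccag
Ckmt1: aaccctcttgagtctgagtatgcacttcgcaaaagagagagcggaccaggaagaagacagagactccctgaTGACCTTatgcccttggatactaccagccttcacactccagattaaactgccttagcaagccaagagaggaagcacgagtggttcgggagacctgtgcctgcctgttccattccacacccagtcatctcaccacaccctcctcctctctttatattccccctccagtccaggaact
Ckm: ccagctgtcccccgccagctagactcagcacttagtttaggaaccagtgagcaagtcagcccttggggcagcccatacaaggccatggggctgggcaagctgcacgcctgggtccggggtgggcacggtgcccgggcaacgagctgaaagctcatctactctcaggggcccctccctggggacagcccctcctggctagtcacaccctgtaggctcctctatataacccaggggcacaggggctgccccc

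The full motif TNAAGGTCA, read on both strands, was in 0 of the 7 member windows and in 1.14% of all 32851 windows of that length. The core AAGGTCA was in 1 of the 7, the Ckmt1 window shown, as TGACCTT 179 bases before the start, and in 4.08% of all windows. The shorter AAGGTC, which every match of the longer motifs also holds, was in 2 of the 7 and in 10.6% of all windows. The second was the Ckmt2 window, 213 bases before the start. Both distances run to the annotated start of the window, which lies past the end of the printed bases. In the printed sequences the match begins at base 38 of 212 for Ckmt2 and at base 72 of 247 for Ckmt1. A match is a run of letters and not a measured binding site, and a window without one says nothing about binding elsewhere.

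The targeted gene followed the genotype labels. The brightest Esrrg probe set read 206 to 281 on the WT arrays, 162 to 164 on the HET arrays and 39.3 to 58.3 on the KO arrays. The signal was highest in WT and lowest in KO, with no overlap between genotypes. Its other 2 probe sets were dim and did not order the genotypes. How the probes lie against the altered exons is not known here. Across the array, limma called 211 of 13028 genes between KO and WT, 96 higher and 115 lower, at an adjusted p under 0.05. The number called was 845 without HET replicate 1, 56 without WT replicate 1, 12 without WT replicate 2, 10 without WT replicate 3, 17 without KO replicate 1, 13 without KO replicate 2 and 19 without KO replicate 3.

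The arrays were divided into 2 sets by their control probe sets. The log2 ratio of the poly-A controls thr and dap was -1.40 to -1.22 on the 3 WT arrays and HET replicate 1, and -1.67 to -1.54 on HET replicates 2 and 3 and the KO arrays. The gap between the sets, 0.13, is the widest between neighbouring arrays but only slightly wider than the next, 0.11, which lies inside the first set, whose own range is 0.19. The labels name no such division, and the ratio was chosen after genes had been seen to part the arrays that way. As divided, KO and WT never share a set, so for a direct KO to WT comparison the array set and the genotype cannot be told apart. Fits with the array set as a block were made, in which KO is linked to WT only through HET replicate 1. That array had the lowest array quality weight from limma, 0.46, against 0.70 to 1.41 for the others. The values of KO minus WT from the block fits therefore rest on that array, and are given beside the results of the members.

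Ckmt2, the mitochondrial kinase of striated muscle (chromosome 13, 91853386 to 91876923, GRCm38.p6), fell when ERRγ was absent. Its single probe set, 1428722_at, read 1430.0, 1852 and 1495 on the WT arrays. The HET arrays read 999, 921 and 1073, and the KO arrays 793, 657 and 762. Every WT array was above every HET array, a pattern in 7.41% of genes tested, and every HET array above every KO array, a pattern in 5.73%. Mean signals (± SD, n = 3) were 1592 ± 227 for WT, 998 ± 76.2 for HET and 738 ± 71.3 for KO, so KO was 46.3% of WT and HET was 62.7% of WT.

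The KO minus WT difference of Ckmt2 was -1.09 ± 0.11 (SE) on the log2(signal + 16) scale, with a 95% interval of -1.32 to -0.85 and a limma adjusted p of 0.000184. Of the 13028 genes tested, 1.62% were called in this comparison, and of the 6 tested members 1 was, Ckmt2. Of all genes, 2 had a smaller p and 29 a more negative difference. With the array set as a block the difference was -1.08 ± 0.19 and was no longer called (adjusted p 0.168, with 0.00768% of genes called in that fit). Esrrg itself went from -1.88 ± 0.19 (limma adjusted p 0.00018) to -1.89 ± 0.34 and was not called with the block either (adjusted p 0.168). Without an intensity trend in the variance the Ckmt2 difference of -1.09 had an adjusted p of 0.0506.

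Loss of a single Esrrg copy went with an intermediate Ckmt2 signal. The HET minus WT difference was -0.66 ± 0.11 (95% interval -0.89 to -0.42), and its limma adjusted p of 0.0973 missed the threshold, as did that of every other gene. In that comparison 0% of genes were called, while 1499 of 13028 had an unadjusted p under 0.05, and Ckmt2 had the third smallest p of all. The array set as a block left the difference at -0.65 ± 0.15 (adjusted p 0.271). Without HET replicate 1 it was -0.66, with an adjusted p of 0.00764, in a fit that called 578 genes in place of 0. Leaving out HET replicate 1 and WT replicate 3 together gave -0.70 (adjusted p 0.0165), with 235 genes called. The adjusted p of Ckmt2 ranged from 0.00764 to 0.612 over all alternatives.

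The KO signal of Ckmt2 was 73.9% of the HET signal, and the KO minus HET difference was -0.43 ± 0.11 (95% interval -0.67 to -0.19). Its limma adjusted p was 0.947 and its unadjusted p 0.00139, in a comparison in which 0.0154% of genes were called. So the neighbouring genotypes did not overlap in Ckmt2, yet only the step from WT to KO passed the threshold. The HET mean lay -0.11 ± 0.10 from the midpoint of WT and KO on the log2 scale (95% interval -0.32 to 0.09, adjusted p 0.983). Of all genes, 0.453% had the 3 genotypes fully separated in the order WT, HET, KO from high to low, and 0.284% in the opposite order.

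Because the 3 genotypes were fully separated in Ckmt2, their order also held inside each array set, and this is no separate test. In the first set HET replicate 1, at 999, was below all 3 WT arrays, which lay between 1430.0 and 1852. In the second set HET replicates 2 and 3, at 921 and 1073, were above all 3 KO arrays, which lay between 657 and 793. Neither set holds both WT and KO.

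**Figure D1:**
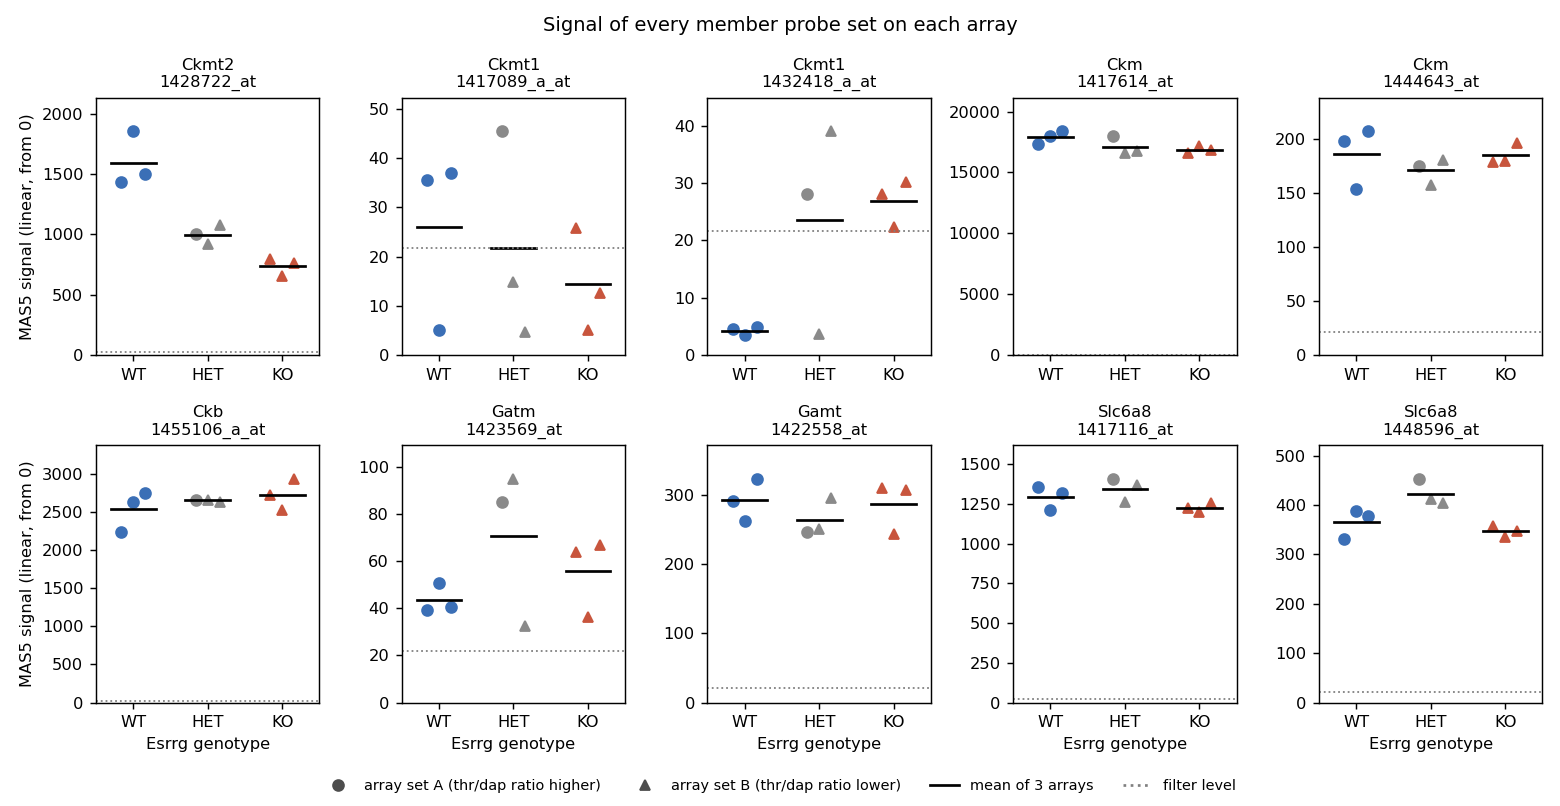
MAS5 signal (linear axis from 0, each panel with its own range) of the 10 member probe sets on each array, by Esrrg genotype. Symbols give the array set, short lines the mean of 3 arrays, and the dotted line the filter level of 21.7. Ckmt2 steps down from WT through HET to KO with no overlap, and Ckm stays near the top of the scale in all 3 genotypes. Both Ckmt1 probe sets are dim. In 1417089_a_at the genotypes overlap, and in 1432418_a_at every KO array is above every WT array, a pattern in 8.78% of probe sets.

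Ckmt1, the mitochondrial kinase of other tissues (chromosome 2, 121357773 to 121363737), was dim. Both of its probe sets had means below the filter level, a signal of 21.7, so the gene was left out of the test by gene and is given from the fit of every probe set without a filter. Probe set 1417089_a_at read 35.6, 5.16 and 37.0 for WT, 45.4, 14.9 and 4.77 for HET, and 25.8, 5.05 and 12.7 for KO. The arrays of the 3 genotypes overlapped. Its KO minus WT difference was -0.40 ± 0.47 (95% interval -1.40 to 0.60, limma adjusted p 0.825), 0.88 with the array set as a block, and -0.83 (without WT replicate 2) to -0.16 (without KO replicate 2) with 1 array left out.

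The second Ckmt1 probe set, 1432418_a_at, read 4.59, 3.42 and 4.81 for WT, 28.1, 3.69 and 39.0 for HET, and 28.1, 22.3 and 30.3 for KO. The KO arrays were all above the WT arrays, which were close to 0, and the HET arrays fell on both sides. Among all 45037 probe sets, 18.1% had KO and WT arrays that did not overlap, 8.78% with KO higher. The difference was 1.08 ± 0.39 (95% interval 0.25 to 1.90, limma adjusted p 0.259, unadjusted p 0.0138), where 0.298% of probe sets were called. Its size depended on the pseudocount, at 0.41 with 64 and 2.40 with 1, and it was 1.5 ± 0.71 with the array set as a block (adjusted p 0.825). The 2 Ckmt1 probe sets differed in sign without the block and not with it.

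Ckm, the cytosolic muscle kinase (chromosome 7, 19411094 to 19421583), had 2 probe sets. The brighter, 1417614_at, read 17357, 18024 and 18365 for WT, 17981, 16616 and 16783 for HET, and 16589, 17194 and 16855 for KO. The KO arrays were all below the WT arrays by a narrow margin, and HET overlapped both. Of the genes tested, 13.9% had every KO array below every WT array. The KO mean stood at 94.2% of the WT mean, and the KO minus WT difference was -0.09 ± 0.05 (95% interval -0.20 to 0.03, limma adjusted p 0.448). It was below 0 in 22 of 24 alternatives, but 0.04 after quantile normalization and 0.02 with the array set as a block, so its sign depended on those choices. Between 45 and 56 probe sets were brighter on each array, and MAS5 values carry no mark for saturation.

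The second Ckm probe set, 1444643_at, read 198, 154 and 207 for WT, 175, 157 and 181 for HET, and 179, 179.5 and 197 for KO. The genotypes overlapped. Its KO minus WT difference was 0.00 ± 0.16 (95% interval -0.34 to 0.34), 0.05 with the array set as a block, and -0.12 to 0.08 with 1 array left out.

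Ckb, the cytosolic brain subunit (chromosome 12, 111669355 to 111672338), was measured by probe set 1455106_a_at. It read 2233, 2630.3 and 2748 for WT, 2660.3, 2665 and 2633 for HET, and 2722, 2533 and 2935 for KO. The genotypes overlapped, and the lowest array was WT replicate 1. The means were 2537 ± 270 in WT, 2653 ± 17.4 in HET and 2730 ± 201 in KO. The KO minus WT difference was 0.11 ± 0.09 (95% interval -0.07 to 0.29, limma adjusted p 0.569), and HET minus WT was 0.07 ± 0.09. KO minus WT was also 0.11 with the array set as a block, but 0.04 with arrays shifted to a common median, 0.02 without WT replicate 1 and 0.17 without WT replicate 3. HET minus WT turned to -0.02 without WT replicate 1 and to -0.0048 with the common median. As a ratio, KO over WT lay between 0.95 and 1.22 for Ckb and between 0.87 and 1.02 for Ckm at the 95% level, against 0.40 to 0.55 for Ckmt2.

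**Figure D2:**
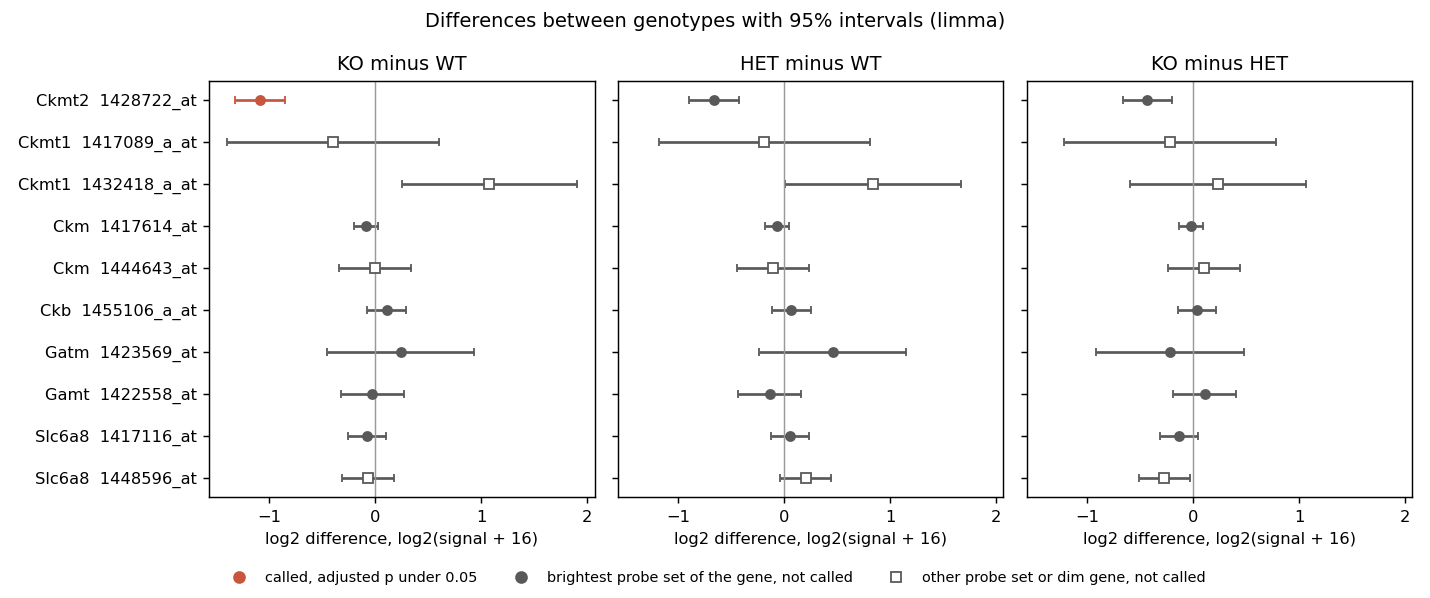
Log2 differences of log2(signal + 16) between genotypes for the 10 member probe sets, with 95% intervals from limma. Filled points are the probe set tested for a gene and open squares the others, including both of Ckmt1. The Ckmt2 difference between KO and WT, -1.09, is the 1 called, and the intervals of Ckm and Ckb include 0 in all 3 comparisons.

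The mitochondrial and cytosolic kinases were compared within each array, which removes whatever scales a whole array. Relative to the WT mean, the log2 difference Ckmt2 minus Ckm was -0.10, 0.22 and -0.12 on the WT arrays, -0.66, -0.66 and -0.46 on the HET arrays, and -0.87, -1.19 and -0.95 on the KO arrays. The 3 genotypes were fully separated, in the order WT, HET, KO, as they were in Ckmt2 alone. The KO minus WT difference was -1.0 (95% interval -1.32 to -0.69, from a linear model over the 9 arrays). The corresponding values were -0.59 (-0.91 to -0.28) for HET minus WT and -0.41 (-0.73 to -0.09) for KO minus HET.

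Ckmt2 minus Ckb gave the same order. Relative to the WT mean it was 0.03, 0.17 and -0.20 on the WT arrays, -0.73, -0.85 and -0.61 on the HET arrays, and -1.09, -1.25 and -1.25 on the KO arrays. No genotypes overlapped. The differences were -1.20 (-1.47 to -0.92) for KO minus WT, -0.73 (-1.0 to -0.45) for HET minus WT and -0.47 (-0.74 to -0.19) for KO minus HET. With the array set as a block, KO minus WT was -1.10 ± 0.25 (SE) against Ckm and -1.20 ± 0.22 against Ckb.

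Each of these 6 comparisons gave p = 0.1 in a two-sided exact permutation test, the smallest that 3 arrays against 3 allow, so none can pass a threshold of 0.05 in that test. Altogether 15 such pair comparisons were computed. For the cytosolic pair, Ckm minus Ckb differed by -0.19 between KO and WT (95% interval -0.40 to 0.01, two-sided exact permutation p = 0.2), with overlapping arrays, and -0.09 with the array set as a block. For Ckmt1, read from probe set 1417089_a_at alone, the difference from Ckm was -0.31 between KO and WT (95% interval -1.68 to 1.05). The difference from Ckb was -0.51 (-1.92 to 0.90). With that probe set, a fall or a rise within these ranges could not be told from no change. With the array set as a block both turned in sign, to 0.86 ± 0.90 and 0.76 ± 0.91. The other Ckmt1 probe set, 1432418_a_at, with its own KO minus WT difference of 1.08, was not paired with the cytosolic kinases. The differences of Ckmt2 from Ckm and Ckb share the Ckmt2 values and are not independent of each other. Since Ckm and Ckb changed little, the separation of the genotypes in these differences largely repeats that of Ckmt2 and is no separate result. The share of other gene pairs with such a separation was not computed.

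**Figure D3:**
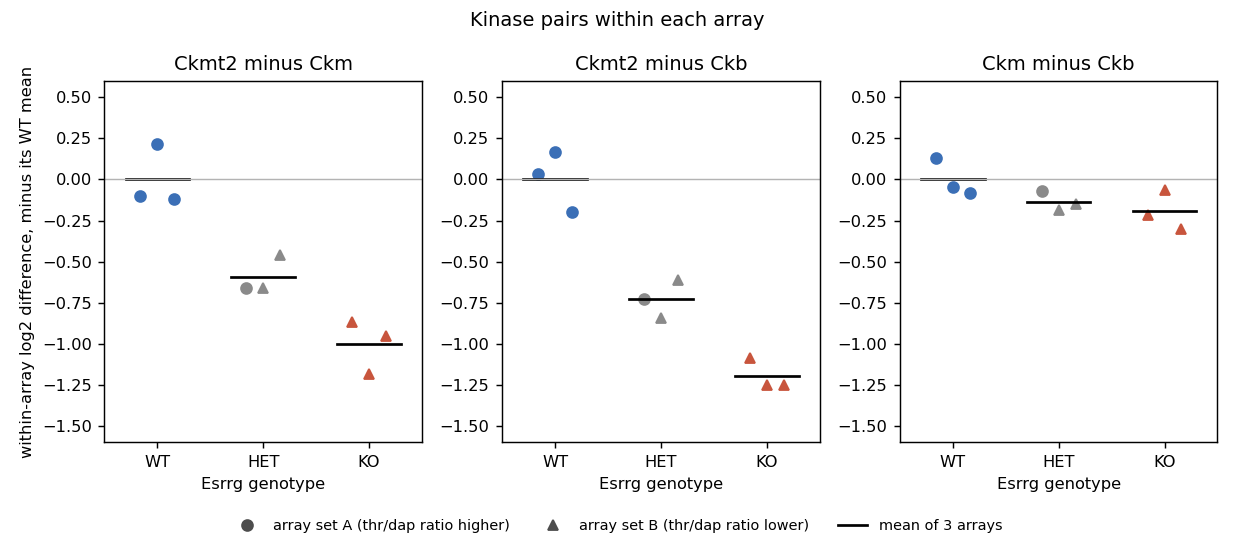
Within-array log2 differences between kinases, each minus its WT mean, by genotype, with the array set as the symbol and short lines for the mean of 3 arrays. Ckmt2 is lower in HET and KO relative to Ckm (KO mean -1.0) and to Ckb (KO mean -1.20). The genotypes do not overlap there, as in Ckmt2 alone, while Ckm relative to Ckb (KO mean -0.19) overlaps.

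Neither enzyme of creatine synthesis was called in any comparison. Gatm (probe set 1423569_at) read 39.2, 50.8 and 40.6 for WT, 84.8, 94.8 and 32.4 for HET, and 63.6, 36.3 and 66.7 for KO. It was dim and widely spread, and the genotypes overlapped. Its KO minus WT difference was 0.24 ± 0.33 and its 95% interval of -0.45 to 0.94 is a KO to WT ratio between 0.73 and 1.91. Neither a fall nor a rise within that range could be told from no change at this spread. The difference was 0.70 ± 0.59 with the array set as a block, 0.45 without KO replicate 2, 0.15 without KO replicate 1 and 0.12 without KO replicate 3.

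Gamt (probe set 1422558_at) read 291, 262 and 323 for WT, 247, 251 and 296 for HET, and 309.9, 244 and 308 for KO, with overlap of all genotypes. Its KO minus WT difference was -0.03 ± 0.14 (95% interval -0.32 to 0.27, limma adjusted p 0.95), and was below 0 in 19 of 24 alternatives. It was -0.16 ± 0.25 with the array set as a block, -0.10 without WT replicate 2, 0.04 without WT replicate 3 and 0.08 without KO replicate 2, so its sign was not stable.

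The creatine transporter Slc6a8 was measured by 2 probe sets from the same transcript accession. The brighter, 1417116_at, read 1359, 1215 and 1318 for WT, 1408, 1264 and 1371 for HET, and 1228, 1199.8 and 1255 for KO. WT overlapped both other genotypes, and the KO arrays were all below the HET arrays, a pattern in 5.73% of genes tested. The differences were -0.08 ± 0.08 for KO minus WT (95% interval -0.25 to 0.10) and -0.13 ± 0.08 for KO minus HET (-0.31 to 0.05), with limma adjusted p of 0.694 and 0.989. KO minus WT was below 0 in 23 of 24 alternatives. It turned to 0.02 ± 0.14 with the array set as a block, so its sign depended on that choice.

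The second, 1448596_at, read 330.4, 387 and 377 for WT, 453, 411 and 404 for HET, and 357, 336 and 348 for KO. The HET arrays were above all others, and WT and KO overlapped. Among all probe sets, 5.88% had HET arrays above every WT array and 5.93% had KO arrays below every HET array. HET minus WT was 0.21 ± 0.11 (95% interval -0.04 to 0.45) and KO minus HET was -0.27 ± 0.11 (-0.51 to -0.03), with 0.30 and -0.22 when the array set was a block, and neither passed the limma test over all probe sets (adjusted p 0.644 and 0.999), in comparisons where 0% and 0.00444% of probe sets were called.

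Over the 6 members tested, the median difference was -0.05 between KO and WT, with 2 higher and 4 lower, beside a median of -0.01 over all 13028 genes. The members apart from Ckmt2 lay between -0.09 and 0.24. No member was called between HET and WT or between KO and HET by limma. In each of these comparisons the unadjusted p was under 0.05 for 1 of the 6, Ckmt2. Over all genes tested that share was 11.5% for HET minus WT and 4.81% for KO minus HET.

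**Figure D4:**
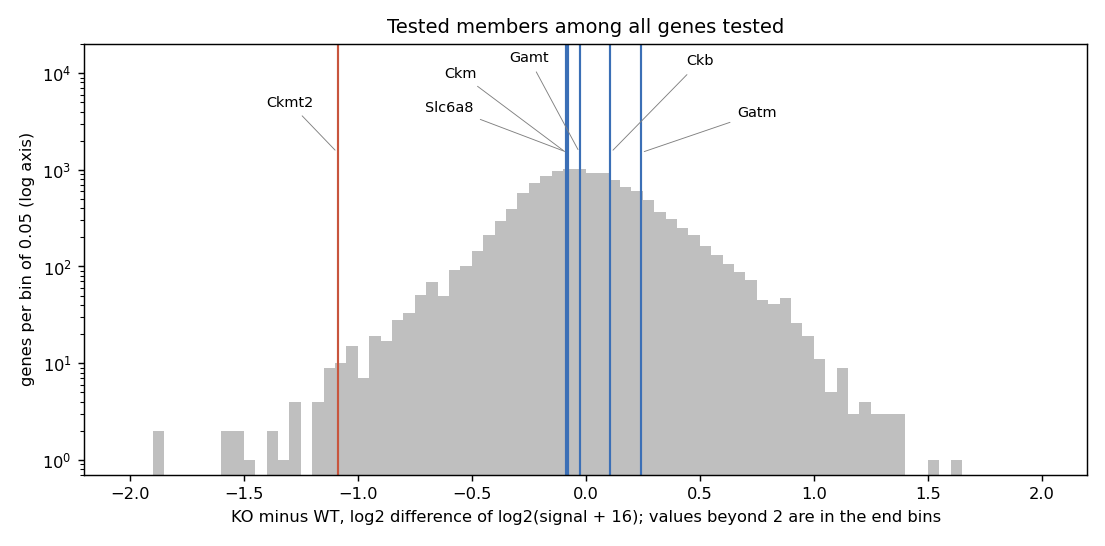
Histogram of the KO minus WT log2 difference over the 13028 genes tested (log count axis), with vertical lines at the 6 tested members. Ckmt2 lies in the lower tail, with 29 genes more negative, and the other 5 members lie in the body of the distribution between -0.09 and 0.24.

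The genes that work beside the kinases were read from 3 lists. Energy transfer partners, which hand ATP and ADP across the mitochondrial membranes or buffer them by other kinases, had 13 of 17 members tested, 4 higher and 9 lower in KO, with 1 called in each direction. Over all genes 0.737% were called higher and 0.883% lower. Slc25a5, an ADP/ATP carrier, read 14487 ± 701 in WT and 11698 ± 330.0 in KO, a difference of -0.31 ± 0.07 (limma adjusted p 0.0446). Vdac3, a channel of the outer mitochondrial membrane, read 4082 ± 262 in WT and 5033 ± 125 in KO, a difference of 0.30 ± 0.07 (adjusted p 0.0482). Both calls rest on the choices made. With the array set as a block they were -0.05 and 0.13, and neither was called when any 1 of the WT or KO arrays was left out. The mean over all probe sets of Slc25a5 gave 0.10. The list's median was -0.09, and 0.06 with the array set as a block.

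Genes of arginine and methyl donor supply, which feed Gatm and Gamt, had 10 of 15 members tested and 0 called by limma between KO and WT, with 4 at an unadjusted p under 0.05, as were 17.2% of all genes. The median difference was 0.04, with 6 higher and 4 lower. The smallest p values belonged to Ahcy, which removes the product of methylation reactions (-0.25 ± 0.08, adjusted p 0.13), Oat, ornithine aminotransferase (0.18 ± 0.07, adjusted p 0.217), Mat2b, a subunit of methionine adenosyltransferase (0.26 ± 0.12, adjusted p 0.269), and Ahcyl1, a relative of Ahcy (-0.17 ± 0.08, adjusted p 0.288). None of these passed the test.

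The subunits of AMP-activated kinase, which senses the AMP that accumulates when ATP buffering fails, were all tested, 7 of 7, and 0 were called by limma, with 1 at an unadjusted p under 0.05. That was Prkab1, a regulatory subunit, at 580.5 ± 22.8 in WT, 492 ± 19.2 in HET and 450.0 ± 12.8 in KO, a KO minus WT difference of -0.36 ± 0.10 (adjusted p 0.0819). It was -0.33 with the array set as a block (adjusted p 0.827), and passed the threshold in 4 of 23 alternatives: arrays shifted to a common median, array quality weights, only the 6 arrays compared, and without HET replicate 1 (adjusted p 0.0368). The next were Prkaa2 (0.15 ± 0.08), Prkag1 (-0.24 ± 0.16) and Prkaa1 (0.35 ± 0.36). The median of the 7 was -0.06.

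Prkab1 was also the gene whose pattern over the 9 arrays was most like that of Ckmt2, with a Pearson correlation of 0.99 on the log2 scale. The next were Asph, an aspartate hydroxylase gene whose locus also encodes junctional proteins of the sarcoplasmic reticulum (0.98), Rras2, a small GTPase (0.98), Pdhb, a subunit of pyruvate dehydrogenase (0.98), and Plin3, a lipid droplet protein (0.96). At the opposite end were Nsmaf (-0.96), Dcp1b, a decapping enzyme (-0.96), Vopp1 (-0.95), Moxd1 (-0.94) and Fbxl20 (-0.94). These are descriptions over 9 arrays that share the genotype and array set differences, and the highest of 13027 values will be high by selection. By rank correlation 4 of the 5 most alike genes were shared, but several genes tied for the 5th place, so this overlap depends on how ties are broken.

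Among the members, the correlation with Ckmt2 over the 9 arrays was 0.67 for Ckm, 0.28 for Slc6a8, 0.18 for Gamt, -0.26 for Gatm and -0.31 for Ckb. For Esrrg it was 0.85, and 176 genes were more alike. These values describe the 9 arrays and follow from the genotype means as much as from the spread within a genotype.

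Markers of the cells a ventricle sample can hold were read beside these results, 60 genes in 10 lists, of which 42 were tested and 1 was called between KO and WT. Of the cardiomyocyte markers 10 of 10 were tested, 0 were called by limma, with 5 at an unadjusted p under 0.05 (17.2% of all genes were), 2 were higher and 8 lower, and their median was -0.12, or 0.01 with the array set as a block. Their summed signal was 184312 to 197033 on the WT arrays, 168502 to 188079 on the HET arrays and 166835 to 179844 on the KO arrays, so the KO sums lay below the WT sums. In bulk samples fewer cells of a type and less RNA per cell cannot be told apart. The part of cardiomyocyte content in the Ckmt2 difference was not tested.

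Skeletal muscle, a source of Ckm and Ckmt2 outside the heart, had 5 of 10 markers tested, 4 higher and 1 lower in KO, with a median of 0.06. Of these markers 0 were called by limma, with 1 at an unadjusted p under 0.05. Their summed signal was 372 to 470 in WT, 424 to 461 in HET and 467 to 518 in KO, and its defining regulators were dim, Myod1 at 4.51 to 48.9 and Myog at 2.84 to 28.6. Brown adipocytes also carry creatine kinases. Their defining gene Ucp1 read 2.5 to 24.1, while both tested markers, Cidea and Cox7a1, were higher in KO without a call (median 0.16), and the summed signal of the list, nearly all of it Cox7a1, which muscle also expresses, was 4824 to 5575 in WT and 5736 to 6260.1 in KO. Fibroblast markers were higher in KO for 5 of 6 tested, with a median of 0.14 and 0 called (3 at an unadjusted p under 0.05). Their summed signal was 24695 to 29244 in WT and 27582 to 29224 in KO. Smooth muscle markers had 3 of 5 higher, a median of 0.24 and 0 called (2 at an unadjusted p under 0.05). With the array set as a block the medians of these lists were 0.46 for skeletal muscle, 0.13 for brown adipocytes, 0.23 for fibroblasts and 0.37 for smooth muscle.

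Of the 5 endothelial markers tested, 1 was higher and 4 lower in KO, with a median of -0.03, or 0.22 with the array set as a block. The 1 marker called was Kdr, a receptor of endothelium, which fell from 1104 ± 109 in WT to 655 ± 27.7 in KO (-0.74 ± 0.14, limma adjusted p 0.0262). It was -0.25 with the array set as a block, and its call was lost when any 1 of the WT or KO arrays was left out. In the remaining lists 0 markers were called. Atrial myocytes had 4 of 4 markers tested (median 0.05), neurons 2 of 5 (-0.18), hepatocytes 1 of 5 (0.31) and erythroid cells 2 of 5 (0.02). With the array set as a block these values were 0.04, -0.03, 1.04 and 0.44. The part of these other cells in the results on the members was not tested.

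**Figure D5:**
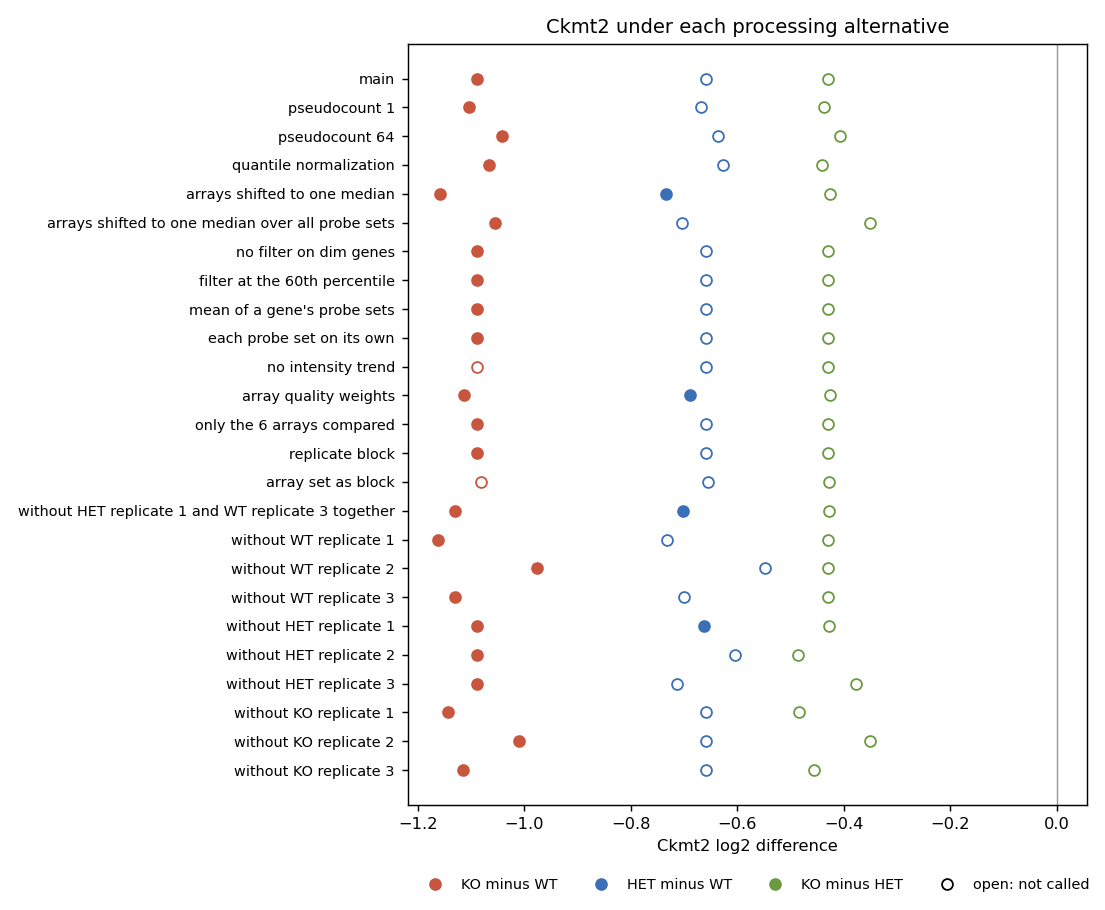
Log2 difference of Ckmt2 between genotypes under each processing alternative, filled where called at an adjusted p under 0.05 and open where not. KO minus WT stays between -1.16 and -0.98, HET minus WT between -0.73 and -0.55 and KO minus HET between -0.49 and -0.35.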

How the data were processed

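RNA of 9 ventricle samples was measured on 1 Affymetrix array each, 3 per genotype. The authors deposited MAS5 signals, a linear intensity for each probe set, made with MAS5 per the submitters' processing notes, which give no version. The 2%-trimmed mean of every deposited column was 200.0, so arrays were scaled and not otherwise normalized. This leaves differences in background, which weigh most on dim genes.

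Symbols came from the platform annotation, updated by gene ID through RefSeq (GRCm38.p6). Analyses used log2(signal + 16), which understates differences at low signal. A gene was represented by its probe set of highest mean, and 5165 genes below the 40th percentile (5.24 on the log2 scale) were left out. The genotype means of the 9 arrays were fitted in R 4.3.3 with limma 3.58.1 (lmFit, then eBayes with a trend on intensity). Two-sided p-values were adjusted over all 13028 genes by the Benjamini-Hochberg method, and genes with an adjusted p under 0.05 were called. The 10 member probe sets were also fitted among all 45037 probe sets that are not controls, without a filter. Kinase pairs were compared within arrays by exact permutation tests and a linear model.

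Array sets were split at the widest gap in the ratio of the controls thr and dap, a ratio chosen after genes had been seen to part the arrays that way. Named genes were the members, Esrrg, the called genes of each list or else the 4 with the smallest p, and the 5 most and 5 least correlated with Ckmt2. The members, lists and alternatives were chosen with earlier results of these data known. Alternatives changed the scaling, pseudocount, filter, probe set choice, variance model, weights, blocks and arrays used. Figures were drawn with matplotlib 3.10.9.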

Additional observations from a re-analysis of the deposited data

How the results depend on the processing

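For Ckmt2, 22 of 24 alternatives kept the KO minus WT call, with differences from -1.16 to -0.98. The exceptions were no intensity trend (-1.09, limma adjusted p 0.0506) and the array set as a block (-1.08, 0.168), where 0 members were called in place of 1. Between HET and WT, where no member was called, Ckmt2 was the 1 member called in some alternatives. These were arrays shifted to a common median (-0.73, 3 genes called in all) and quality weights (-0.69, 9 genes). Another was the fit without HET replicate 1 and WT replicate 3 together (-0.70, 235 genes). Leaving out each array in turn gave -1.16 to -0.98 for KO minus WT and -0.73 to -0.55 for HET minus WT. The latter was called without HET replicate 1 (-0.66, limma adjusted p 0.00764), where 578 genes were called, and 0 to 1 members were called. Of 597 results of the other members under the alternatives, 0 were called. The mean of the probe sets reversed Slc25a5 between KO and WT (0.10).

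The 211 genes called between KO and WT became 452 with a common median (87 higher and 365 lower, against 96 and 115), 24 with a common median over all probe sets (12 and 12, chosen after seeing the data), 85 without a filter, 7 with probe sets averaged by gene, 134 for each probe set, 6 without a trend, 612 with weights, 773 with only the 6 arrays compared, 448 without HET replicate 1 and WT replicate 3 together and 1 with the array set as a block, and 10 to 845 with each array left out. The 0 called between HET and WT became 3, 9, 2 and 235 with the common median, weights, array set block and without that pair of arrays, and 0 to 578 with each array left out. The 2 between KO and HET became 0 with the common median over all probe sets, averaged probe sets, no trend, only the 6 arrays compared and without that pair, and 0 to 3 with each array left out. Where 1 array of a genotype was left out, the spread was pooled over the genotypes.

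Replicate numbers showed no sign of pairing the samples, which does not settle whether they do. Correlations were -0.04 to 0.05 for arrays of the same number and -0.06 to 0.08 for different numbers. With the replicate number as a block, Ckmt2 was -1.09 between KO and WT (adjusted p 0.00122), and 127 genes were called between KO and WT and 1 between HET and WT. With 3 arrays per genotype, signals near the filter level, as for Ckmt1 and Gatm, limit what can be seen.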
